A study of Homo sapiens with 6 samples.

Results

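The epithelial-mesenchymal transition genes described here were SNAI1, SNAI2, TWIST1, ZEB1, ZEB2, CDH1, CDH2, CDH11, VIM and FN1, all 10 of which were found by symbol among the 60605 genes of the deposited table. They were read in MDA-MB-231 cells, a human triple-negative breast cancer line of mesenchymal appearance. The cells carried a short hairpin RNA from a lentiviral vector and had been selected with puromycin, with a control hairpin in the group called shControl and a hairpin against PUS1 in the group called shPUS1. PUS1 is a pseudouridine synthase, an enzyme that turns uridine in RNA into pseudouridine. Poly(A)-selected RNA was sequenced in 3 libraries per group, and library totals lay between 14241505 and 19625998 estimated read counts. The labels call each library a biological replicate, and whether the replicates came from separate selections is not given in the sources used here, so p-values measure the spread between these libraries. The deposited columns name the hairpin arm knockdown-2, which was not matched to one of the study's hairpins here. The comparison asked whether the transition genes had another RNA level with the PUS1 hairpin than with the control hairpin.

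In the epithelial-mesenchymal transition, cells held together by E-cadherin junctions lose these contacts and gain a motile, matrix-binding state. The zinc finger repressors of the SNAI and ZEB families and the helix-loop-helix factor TWIST1 bind E-box sequences and repress epithelial genes such as CDH1, which encodes E-cadherin. N-cadherin (CDH2), the mesenchymal cadherin CDH11, the intermediate filament protein vimentin (VIM) and the matrix protein fibronectin (FN1) are read as signs of the mesenchymal state. MDA-MB-231 is known as a line in the mesenchymal part of this range. MicroRNAs of the miR-200 family hold back ZEB1 and ZEB2 in epithelial cells, and the ZEB factors in turn repress the genes of these microRNAs.

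In shPUS1, CDH11 RNA rose 3.37-fold, with an adjusted p of 0.0215 by edgeR's quasi-likelihood test with Benjamini-Hochberg adjustment, a call that was lost in 4 of the 6 runs that left out 1 library. The repressor genes SNAI1, SNAI2 and ZEB2 were 2.35-fold, 1.74-fold and 1.52-fold higher and VIM was 1.42-fold lower, each without overlap between the groups and none past the threshold in that test. FN1 overlapped between the groups, CDH1 and CDH2 stayed below 0.2 FPKM in every library, and TWIST1 was listed at 0. In RNA from a whole culture, fewer cells that express a gene and less of its RNA per cell cannot be told apart.

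The target of the hairpin was read as a check of the labels. PUS1 (ENSG00000177192, chr12:131929200-131945896) stood at 2.57, 4.66 and 2.18 FPKM in shControl libraries 1 to 3 and at 1.13, 0.950 and 0.930 FPKM in shPUS1 libraries 1 to 3. FPKM are reads scaled to exon length and to library total, so levels can be compared between genes. Every shPUS1 library lay below every shControl library. The fitted log2 fold change of shPUS1 over shControl was -1.64 ± 0.32 (SE, n = 3 per group), 3.11-fold lower, with an adjusted p of 0.0462 by edgeR. Leaving out shControl replicate 2, the highest library, gave -1.20 with an adjusted p of 0.0031, leaving out shControl replicate 1 gave an adjusted p of 0.0905, and leaving out shPUS1 replicates 1, 2 and 3 in turn gave 0.208, 0.253 and 0.192, with log2 fold changes of -1.86 to -1.20 over all such runs. Unless another tool or a left-out library is named, fold changes and adjusted p come from one edgeR fit on the counts of the 14748 genes that passed a filter on low counts. A gene past the threshold combined an adjusted p below 0.05 with a log2 fold change of 1 or more in size.

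One library stood apart. Across tested genes, the log2 levels of shControl replicate 2 correlated with those of shControl replicates 1 and 3 at 0.9505 and 0.9521, while the latter correlated at 0.981 with each other and the shPUS1 libraries at 0.9872 to 0.9906. ShControl replicates 1 and 3 thus correlated more closely with the shPUS1 libraries (0.9659 to 0.9773) than with replicate 2. Values without shControl replicate 2 are therefore given beside those of PUS1, the members and the related genes past the threshold.

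Of all genes tested, 1.37% were past the threshold in either direction, 0.888% higher and 0.481% lower in shPUS1. By the DESeq2 test 3.68% of genes were past it, and by edgeR without shControl replicate 2 3.28% were. The 202 genes past the threshold by edgeR became 11 without shControl replicate 1, 236 without shControl replicate 3, and 11, 6 and 0 without shPUS1 replicates 1, 2 and 3 in turn, where 3750, 2215, 2112 and 2581 genes had an unadjusted p under 0.05 in the 4 runs with 11 or fewer. Counts of genes whose groups did not overlap have to be read against a high background, since 18.8% of the genes had every shPUS1 library above every shControl library and 17.3% had every one below. For a single gene with 3 against 3 libraries, the smallest p of a two-sided exact permutation test is 0.1, which 7 of the 8 tested members reached and which cannot pass the threshold.

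Of the 10 members, 8 had enough counts to be tested and TWIST1 and CDH2 did not. One of the 8, CDH11, was past the threshold. Groups did not overlap for 7 of them on the scale of depth-scaled counts (TMM), with SNAI1, SNAI2, ZEB1, ZEB2, CDH1 and CDH11 higher and VIM lower in shPUS1, and FN1 overlapped. The median log2 fold change was 0.70 over the 8 tested members and -0.03 over all genes tested. CDH1 passed the filter through its shPUS1 libraries, since 1 shControl and 3 shPUS1 libraries reached the level the filter asks for, so these counts and medians are no support for a direction. At an unadjusted p under 0.05 stood 5 of the 8 members, against 25.5% of all genes tested.

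**Figure D1:**
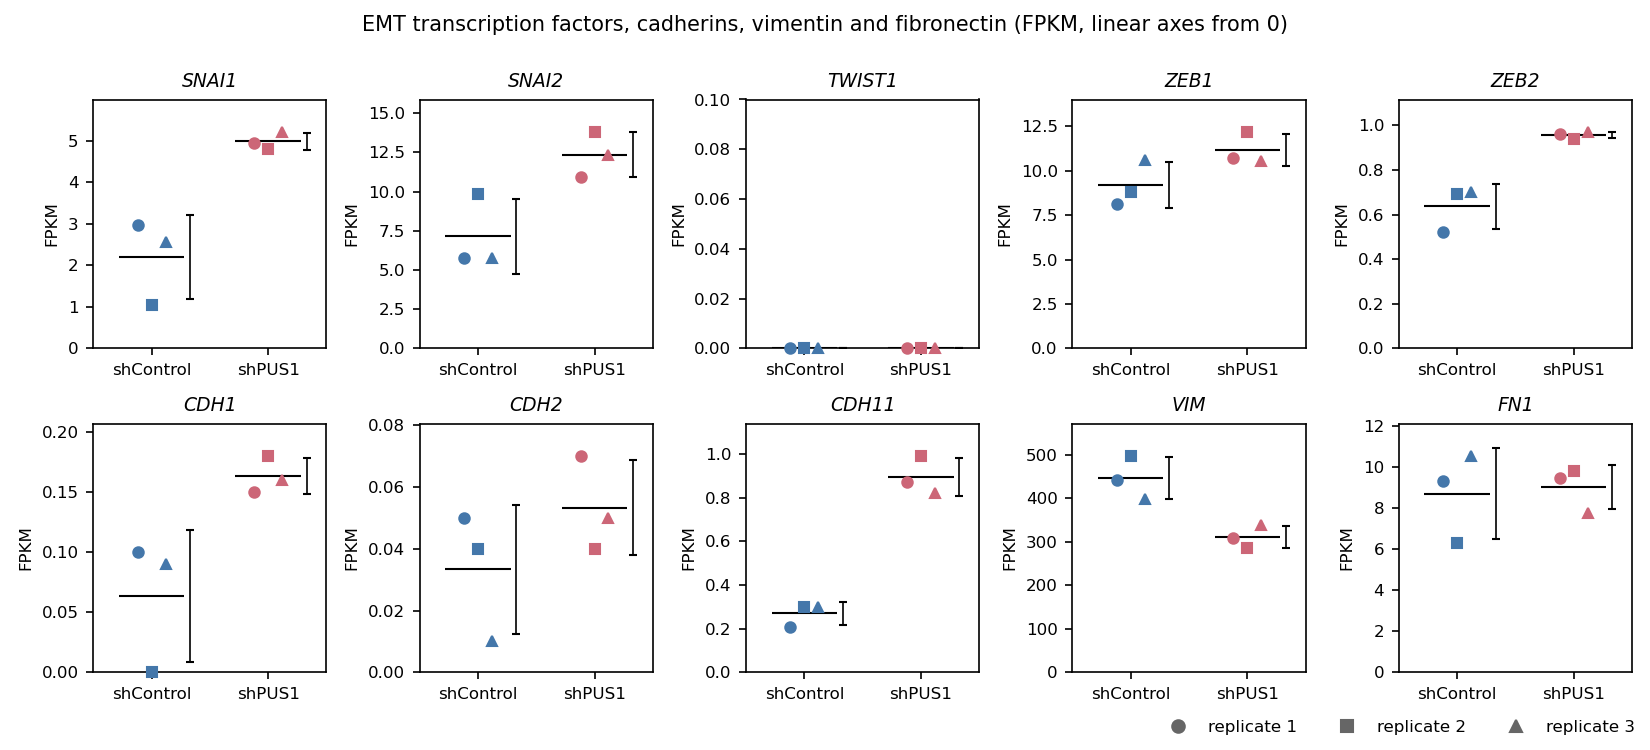
FPKM of each of the 10 members in the 3 shControl and 3 shPUS1 libraries, with 1 panel per gene, 1 point per library, a line at the group mean and a bar of 1 SD to either side. CDH11 went from 0.210 to 0.300 in shControl to 0.820 to 0.990 in shPUS1, VIM was lower in every shPUS1 library, FN1 overlapped, and TWIST1 was at 0 throughout.

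SNAI1 (ENSG00000124216, chr20:49982980-49988886, plus strand) encodes Snail, a repressor of CDH1. It stood at 2.97, 1.05 and 2.55 FPKM in shControl and at 4.95, 4.80 and 5.21 FPKM in shPUS1, from 76, 35 and 62 counts against 154, 150 and 152. The shPUS1 libraries lay close together and above the shControl libraries, among which replicate 2 was far the lowest. The log2 fold change was 1.23 ± 0.35 (SE, n = 3 per group), 2.35-fold with a 95% interval of 1.34 to 4.10, and the adjusted p of 0.0904 by edgeR did not pass the threshold. Leaving out shControl replicate 2 gave 0.89 with an adjusted p of 0.010, below the fold asked for. By DESeq2 the adjusted p was 0.012 and SNAI1 was past the threshold.

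SNAI2 (ENSG00000019549, chr8:48917598-48921740, minus strand) encodes Slug, a closely related repressor of epithelial genes. Its levels were 5.77, 9.88 and 5.78 FPKM in shControl and 10.95, 13.81 and 12.31 FPKM in shPUS1. Here shControl replicate 2 was the highest of its group, in contrast to its place for SNAI1, and still lay below each shPUS1 library. A log2 fold change of 0.80 ± 0.25 (SE, n = 3 per group), 1.74-fold with a 95% interval of 1.17 to 2.59, had an adjusted p of 0.107 by edgeR. With shControl replicate 2 left out it was 1.14 with an adjusted p of 0.0013, past the threshold, and by DESeq2 the adjusted p was 0.031 with a fold change below the threshold. The ratio of SNAI2 to SNAI1 in FPKM was 1.94, 9.44 and 2.26 in shControl and 2.21, 2.88 and 2.36 in shPUS1, so that the highest ratio was that of shControl replicate 2 and the others overlapped between groups.

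TWIST1 (ENSG00000122691, chr7:19020991-19117636, minus strand), the helix-loop-helix factor of the set, was listed at 0 in all 6 libraries. A count of 0 allows up to 3 counts, which is 0.0765 to 0.105 FPKM depending on the library, and the interval covers counting error only. No level can be compared for it, and no fold change is given. Its close relative TWIST2 was at 0 as well, with a limit of 0.0818 to 0.113 FPKM.

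ZEB1 (ENSG00000148516, chr10:31318495-31529814, plus strand) encodes a zinc finger and homeodomain repressor of CDH1 and of the miR-200 genes. It stood at 8.14, 8.81 and 10.63 FPKM in shControl and at 10.74, 12.18 and 10.56 FPKM in shPUS1. In FPKM the third library of each group crossed over by a small margin, while after TMM scaling every shPUS1 library was above every shControl library. The log2 fold change was 0.30 ± 0.14 (SE, n = 3 per group), with a 95% interval of -0.01 to 0.62 and an adjusted p of 0.209 by edgeR, and with shControl replicate 2 left out it was 0.29 with 0.139. ZEB1-AS1, an antisense gene that overlaps its start, stood at 1.93, 1.36 and 1.71 FPKM in shControl and at 0.820, 1.39 and 0.790 FPKM in shPUS1, where the fit gave -0.71 and an adjusted p of 0.172 by edgeR. Strandedness is not given in the sources used here, so reads of the overlapping pair may not have been told apart; the counts of ZEB1-AS1 came to 5.72% of those of ZEB1.

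ZEB2 (ENSG00000169554, chr2:144364364-144521057, minus strand), the other ZEB repressor, was far lower, at 0.520, 0.690 and 0.700 FPKM in shControl and 0.960, 0.940 and 0.970 FPKM in shPUS1. Counts were between 204 and 356 in shControl and between 433 and 456 in shPUS1, and the groups did not overlap. The shPUS1 libraries were again the more uniform. Its log2 fold change was 0.60 ± 0.17 (SE, n = 3 per group), 1.52-fold with a 95% interval of 1.16 to 1.98, and the adjusted p was 0.0881 by edgeR. In the fit without shControl replicate 2 the value was 0.69 with an adjusted p of 0.012, and DESeq2 gave an adjusted p of 0.031, both below the fold asked for. ZEB1 exceeded ZEB2 by a ratio of 14.5 ± 1.58 (SD, n = 3) in shControl and 11.7 ± 1.11 (SD, n = 3) in shPUS1, and these ratios overlapped between groups.

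The mature miR-200 sequences are shown because the ZEB genes are their best known targets and their seeds set which letters to look for in 3′ UTRs. They are RefSeq's, 5′ to 3′, with the seed (bases 2 to 8) in capitals, and the microRNAs themselves were not measured in these libraries. The first seed was shared by
hsa-miR-200b-3p: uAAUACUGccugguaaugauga
hsa-miR-200c-3p: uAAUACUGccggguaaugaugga
hsa-miR-429: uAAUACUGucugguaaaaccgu
and the other by
hsa-miR-141-3p: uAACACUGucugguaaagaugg
hsa-miR-200a-3p: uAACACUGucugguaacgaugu

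The letters that pair with these seeds, CAGTATT and CAGTGTT, were searched on the sense strand of the longest 3′ UTR of every gene in GENCODE release 29. Since C stands only at their start, these heptamers cannot overlap each other. ZEB1 held 9 matches, 6 of CAGTATT and 3 of CAGTGTT. As many or more were held by 0.0386% of the 2592 UTRs of like length, a share that counts ZEB1 itself. ZEB2 also held 9 matches, 5 and 4 of the respective letters, and 0.168% of the 1188 UTRs of like length, ZEB2 itself counted, held as many or more. FN1 held 2 matches, SNAI2 and CDH11 held 1 each, and the other members held 0, against 27.6% of 19560 genes with a match of either kind. A match is a description of letters and not evidence of a site in use. One site of each ZEB gene is given here, with the letters that pair with the seed in capitals, at positions 372 and 395 of the 3′ UTR in turn.
ZEB1: tatcttatCAGTATTatcactct
ZEB2: ccatacatCAGTATTtttattat

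The E-box hexamer bound by SNAI and ZEB factors, CAGGTG, which reads CACCTG on the other strand, was searched on both strands of RefSeq promoter windows from 250 bases before to 50 bases after a gene start (GRCh38.p14). Windows were held here for 5 of the 10 members, ZEB1, ZEB2, VIM, FN1 and CDH2, and 2 of their 12 windows held the hexamer, against 20.6% of 35116 windows overall. Both were windows of ZEB1, whose gene has several starts. One copy from each of these windows is given here on the plus strand, at offsets of -57 and -85 from the start, with the hexamer in capitals.
ZEB1 chr10:31318348-31318377: ccgaggtgacagCAGGTGagggccgggtgc
ZEB1 chr10:31319119-31319148: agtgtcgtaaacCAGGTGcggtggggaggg

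E-cadherin, the adhesion molecule of epithelial cells encoded by CDH1 (ENSG00000039068, chr16:68737292-68835537, plus strand), was low throughout and had 0 counts in 1 library. Its counts were 9, 0 and 8 in shControl and 17, 20 and 17 in shPUS1, which is 0.1, 0 and 0.0900 FPKM against 0.150, 0.180 and 0.160 FPKM. All shPUS1 libraries were above all shControl libraries at a level that stayed below 0.2 FPKM. Summed over libraries and scaled for depth, 54 counts against 17 gave a ratio of 2.89 with a 95% interval of 1.65 to 5.32 that covers counting error only. The fit over libraries gave a log2 fold change of 1.47 ± 0.79 (SE, n = 3 per group), a 95% interval of -0.37 to 3.30 and an adjusted p of 0.280 by edgeR. When shControl replicate 2, the library with 0 counts, was left out, it was 0.82 with an adjusted p of 0.182.

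N-cadherin, encoded by CDH2 (ENSG00000170558, chr18:27932879-28177946, minus strand) and often gained as E-cadherin is lost, was lower still. It had 7, 7 and 1 counts in shControl and 11, 6 and 7 in shPUS1, or 0.01 to 0.05 FPKM against 0.0400 to 0.0700 FPKM. The groups overlapped, and it had too few counts for the test. The ratio of summed counts, 24 to 15, was 1.46 after scaling with a 95% interval of 0.734 to 2.99 for counting error, so no difference was detectable at this depth. An unnamed gene on the opposite strand within its interval had 40.6% as many counts.

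CDH11 (ENSG00000140937, chr16:64943753-65126112, minus strand), a cadherin of mesenchymal and bone-forming cells, rose and was the member past the threshold. It stood at 0.210, 0.300 and 0.300 FPKM in shControl and at 0.870, 0.990 and 0.820 FPKM in shPUS1, from 42, 77 and 56 counts against 211, 240 and 186. The gap between the groups was wider than the range of either. Its log2 fold change was 1.75 ± 0.22 (SE, n = 3 per group), 3.37-fold with a 95% interval of 2.37 to 4.80 and an adjusted p of 0.0215 by edgeR. Without shControl replicate 2 it was 1.86 with an adjusted p of 0.0011, and DESeq2 gave an adjusted p of 1.28e-08. The call did not hold at the adjusted p of 0.068 without shControl replicate 1, nor at 0.160, 0.184 and 0.138 without shPUS1 replicates 1, 2 and 3 in turn, while over all runs that left out a library the log2 fold change stayed between 1.602 and 1.858. A small part of its transcript, 1.16% of stretches of 100 bases, is shared with another annotated gene.

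**Figure D2:**
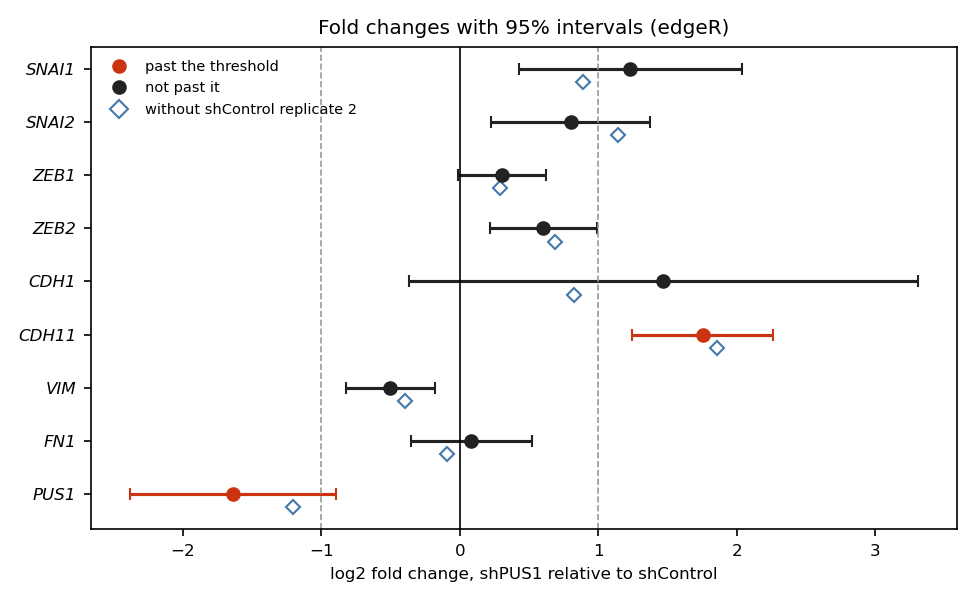
Log2 fold change of shPUS1 over shControl for PUS1 and the 8 tested members, with 95% intervals from edgeR (n = 3 per group) and the values without shControl replicate 2 beside them; the dashed lines mark a fold change of 1 in either direction on the log2 scale. The interval of CDH11, 1.24 to 2.26, lay beyond the line and that of FN1, -0.35 to 0.52, spanned 0.

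Vimentin was the most abundant of the set by far. VIM (ENSG00000026025, chr10:17228241-17237593, plus strand), the intermediate filament gene of mesenchymal cells, stood at 443, 498 and 400 FPKM in shControl and at 309, 286 and 339 FPKM in shPUS1. Each shPUS1 library was below each shControl library. Its log2 fold change of -0.50 ± 0.14 (SE, n = 3 per group), 1.42-fold lower, had a 95% interval of -0.82 to -0.18 and an adjusted p of 0.0873 by edgeR. Without shControl replicate 2 it was -0.40 with an adjusted p of 0.0305, and DESeq2 gave 0.033, in both cases below the fold asked for. VIM took 0.231% ± 0.0254 (SD, n = 3) of all counts in shControl and 0.161% ± 0.0136 (SD, n = 3) in shPUS1, and ranked 48, 41 and 49 among all genes by FPKM in shControl against 54, 62 and 52 in shPUS1.

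The direction of VIM turned with the gene it was set against. Relative to ACTB, the cytoskeletal actin gene, it was 0.569 ± 0.0697 (SD, n = 3) in shControl and 0.370 ± 0.00568 (SD, n = 3) in shPUS1. Relative to GAPDH, a gene of glycolysis often taken as a reference, it was 0.341 ± 0.0141 (SD, n = 3) in shControl and 0.392 ± 0.0173 (SD, n = 3) in shPUS1, so that VIM was higher on this scale. GAPDH itself had a log2 fold change of -0.71 with an adjusted p of 0.0462 by edgeR, and ACTB one of 0.09 with an adjusted p of 0.769. The antisense gene VIM-AS1, which overlaps VIM, was at 6.75, 7.36 and 4.88 FPKM in shControl and 5.07, 5.79 and 5.98 FPKM in shPUS1, and held 0.616% as many counts as VIM.

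FN1 (ENSG00000115414, chr2:215360440-215436073, minus strand), which encodes the matrix protein fibronectin, stood at 9.33, 6.29 and 10.56 FPKM in shControl and at 9.50, 9.83 and 7.80 FPKM in shPUS1. The groups overlapped throughout. A log2 fold change of 0.08 ± 0.19 (SE, n = 3 per group) had a 95% interval of -0.35 to 0.52 and an adjusted p of 0.805 by edgeR. Without shControl replicate 2, the library with the lowest level, the sign turned to -0.09 with an adjusted p of 0.603.

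The order of the levels within a group was set almost entirely by gene. In shControl, VIM at 447 ± 49.0 FPKM was followed by ZEB1 at 9.19 ± 1.29, FN1 at 8.73 ± 2.20 and SNAI2 at 7.14 ± 2.37 FPKM (SD, n = 3), and these last neighbours overlapped in their ranges. SNAI1 at 2.19 ± 1.01, ZEB2 at 0.637 ± 0.101 and CDH11 at 0.270 ± 0.0520 FPKM came next, with ranges apart, ahead of CDH1 and CDH2, which overlapped. In shPUS1, VIM at 311 ± 26.3 FPKM was followed by SNAI2 at 12.4 ± 1.43 and ZEB1 at 11.2 ± 0.888, which overlapped, then FN1 at 9.04 ± 1.09 and SNAI1 at 4.99 ± 0.207 FPKM (SD, n = 3). ZEB2 at 0.957 ± 0.0153 and CDH11 at 0.893 ± 0.0874 FPKM overlapped in shPUS1, whereas their ranges were apart in shControl. These levels are FPKM, per exonic length, and a difference between genes in them is one of level and not of change.

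By the likeness of their profiles over the 6 libraries, measured as the root mean square difference of log2 depth-scaled counts centred on each gene's mean, the 3 nearest of 12608 protein-coding genes were found for each tested member. This is a description over 6 libraries, and neighbours share the library structure. SNAI1 was nearest to CDR2 at 0.083, with DAAM1 and EIF2AK3 after it, and SNAI2 to CLCF1 at 0.091, with LRRC61 and SLCO1B3 after it. The profile of ZEB1 was nearest to SPOCD1 at 0.020, then AHR and PCNX2, and that of ZEB2 to ATP13A2 at 0.038, then SH3D19 and SETD1A. CDH1 lay nearest to IL1A at 0.079, then PCDH1 and ARG2. CDH11 had the most distant neighbours, RHOJ at 0.150, LBH at 0.174 and C2CD3 at 0.222, which were past the threshold in the same direction. VIM was nearest to CKAP2 at 0.030, then NMRAL1 and MRPS14, and FN1 to MBTD1 at 0.043, then RLF and CRKL.

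Other genes of the transition were read from 14 lists of related genes, with 188 of 256 genes in the table tested. Past the threshold were 6 higher and 1 lower, and the groups did not overlap for 59 higher and 28 lower. Over all genes tested, 0.888% were higher and 0.481% lower past it, and 18.8% were higher and 17.3% lower without overlap. An unadjusted p under 0.05 was found for 25.5% of all genes tested. Counts in single lists below are to be read against these shares. The median log2 fold change of the 188 genes was 0.09.

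**Figure D3:**
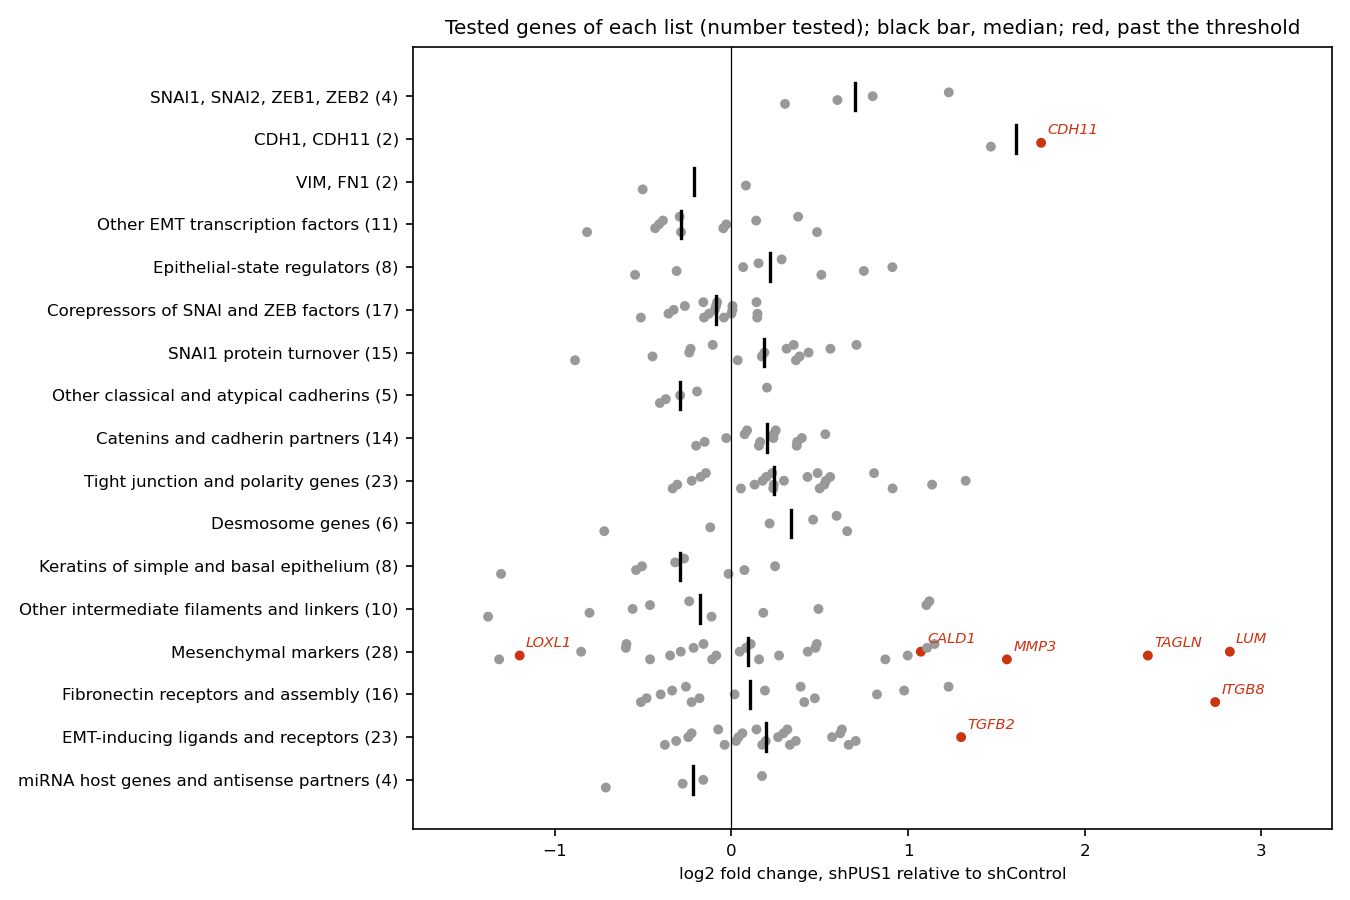
Log2 fold change of shPUS1 over shControl for each tested gene of the members and of the 14 related lists, 1 row per list, with a bar at the list's median and red points for genes past the threshold. Medians lay between -0.29 and 0.34 for the related lists, and the 7 genes past the threshold were in the mesenchymal, fibronectin and ligand lists.

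Among further transcription factors of the transition, 11 of 17 were tested, 0 were past the threshold by edgeR or by DESeq2 and 3 had an unadjusted p under 0.05, with a median of -0.29. Their most abundant members were FOSL1, a subunit of AP-1, with a log2 fold change of -0.39, TCF3, an E-box factor, with -0.05, and SOX9 with -0.41. Of the regulators that hold the epithelial state, 8 of 16 were tested, 0 were past the threshold by either tool and 4 had an unadjusted p under 0.05, while the adjusted p alone by edgeR was under 0.05 for KLF5 and KLF4, zinc finger factors of epithelia. KLF5 stood at 15.2, 10.9 and 16.0 FPKM in shControl and 26.3, 25.4 and 25.7 FPKM in shPUS1, where the fit gave 0.91 with an adjusted p of 0.0341 by edgeR. KLF4 stood at 13.0, 9.14 and 12.7 FPKM in shControl and 19.2, 20.3 and 17.9 FPKM in shPUS1, with 0.75 and 0.0472. EHF, an ETS factor of epithelia, went the other way without overlap, at 20.8, 16.9 and 22.2 FPKM in shControl and 15.6, 16.3 and 15.6 FPKM in shPUS1, with -0.31 and an adjusted p of 0.169 by edgeR. Without shControl replicate 1 the adjusted p of KLF5 was 0.0872 and that of KLF4 0.0905, without shControl replicate 3 that of KLF4 was 0.0562, with library totals in place of TMM it was 0.0580, and with any single shPUS1 library left out both were above 0.05.

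The lists of junction genes, which SNAI and ZEB factors are known to repress in cells that leave the epithelial state, had 0 genes past the threshold by edgeR. By DESeq2 2 of the tight junction genes, CGN and PRKCZ, named after their values had been seen, were past it, both higher in shPUS1. By edgeR, CGN was past it without shControl replicate 2, and both were past it when genes of low counts were kept. Of the tight junction and polarity genes, 23 of 25 were tested, 12 were higher without overlap and 1 lower, 8 had an unadjusted p under 0.05, and the median log2 fold change was 0.24. Over all genes tested, 18.8% were higher and 17.3% lower without overlap, and 25.5% had an unadjusted p under 0.05. CLDN4, a claudin, stood at 26.7, 16.4 and 25.2 FPKM in shControl and 32.2, 32.4 and 29.2 FPKM in shPUS1, with an adjusted p of 0.141. Of the desmosome genes 6 of 11 were tested, with 4 higher and 0 lower without overlap, 3 at an unadjusted p under 0.05 and a median of 0.34. Of the catenins and other cadherin partners 14 of 17 were tested, with 4 higher and 0 lower without overlap, 3 at an unadjusted p under 0.05 and a median of 0.20. Of the other cadherins 5 of 20 were tested, all 5 overlapped between groups and 0 had an unadjusted p under 0.05. Among keratins, 8 of 13 tested with 2 at an unadjusted p under 0.05 and a median of -0.29, KRT19 was at 98.6, 63.7 and 85.5 FPKM in shControl and 55.8, 51.1 and 60.3 FPKM in shPUS1, with an adjusted p of 0.102.

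Beside VIM and FN1, which did not pass, 5 of the 28 tested mesenchymal marker genes were past the threshold, 4 higher and 1 lower. The groups did not overlap for 8 higher and 7 lower genes of the list, 13 had an unadjusted p under 0.05, and the median was 0.10. Over all genes tested, 18.8% were higher and 17.3% lower without overlap, and 25.5% had an unadjusted p under 0.05. By DESeq2 6 genes of the list were past the threshold, among them COL1A1, named after its values had been seen. TAGLN, an actin-binding protein of smooth muscle, rose from 2.04, 0.990 and 2.52 FPKM to 8.43, 9.37 and 9.82 FPKM, a log2 fold change of 2.36 ± 0.30 (SE, n = 3 per group) with an adjusted p of 0.0215 by edgeR. LUM, a matrix proteoglycan, rose from 0.420, 0.0600 and 0.210 FPKM to 1.27, 1.74 and 1.68 FPKM with 2.82 ± 0.55 and 0.0462. MMP3, a matrix protease, rose with 1.56 ± 0.24 and 0.0324, and LOXL1, a collagen cross-linking enzyme, fell with -1.20 ± 0.22 and 0.0418. For all 4 the groups did not overlap, and the lowest shControl level of TAGLN and of LUM was that of shControl replicate 2. CALD1, an actin-binding protein named after its values had been seen, completed the 5 past the threshold by edgeR, with 1.07 ± 0.14 and 0.0248.

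In other lists, the integrin gene ITGB8 rose from 0.120, 0.0300 and 0.130 FPKM to 0.560, 0.830 and 0.470 FPKM, a log2 fold change of 2.74 ± 0.47 (SE, n = 3 per group) with an adjusted p of 0.0371 by edgeR. TGFB2, a ligand that induces the transition, rose from 27.0, 13.9 and 30.9 FPKM to 56.5, 59.2 and 56.9 FPKM, with 1.30 ± 0.25 and 0.0460. It was the most abundant of these 7 genes by mean FPKM. AXL, a receptor kinase of mesenchymal cells, with -0.60 and 0.0623, was lower without overlap and did not pass.

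These 7 calls depended on single libraries. Leaving out shControl replicate 2 gave log2 fold changes of 2.06 for TAGLN, 2.32 for LUM, 2.31 for ITGB8, 1.03 for TGFB2, 1.70 for MMP3 and -1.07 for LOXL1, all past the threshold by edgeR, while CALD1 at 0.95 fell short of the fold asked for. None of the 7 was past the threshold when shControl replicate 1 or any single shPUS1 library was left out, where the adjusted p of TAGLN was 0.0830, 0.136, 0.178 and 0.138. Leaving out shControl replicate 1, the library with the highest control level of LUM, gave a log2 fold change of 3.62 for that gene. Leaving out shControl replicate 3 ended the calls of LUM and LOXL1 at adjusted p of 0.0678 and 0.0548. With library totals in place of TMM, LUM and TGFB2 were not past the threshold at 0.0523 and 0.0538.

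**Figure D4:**
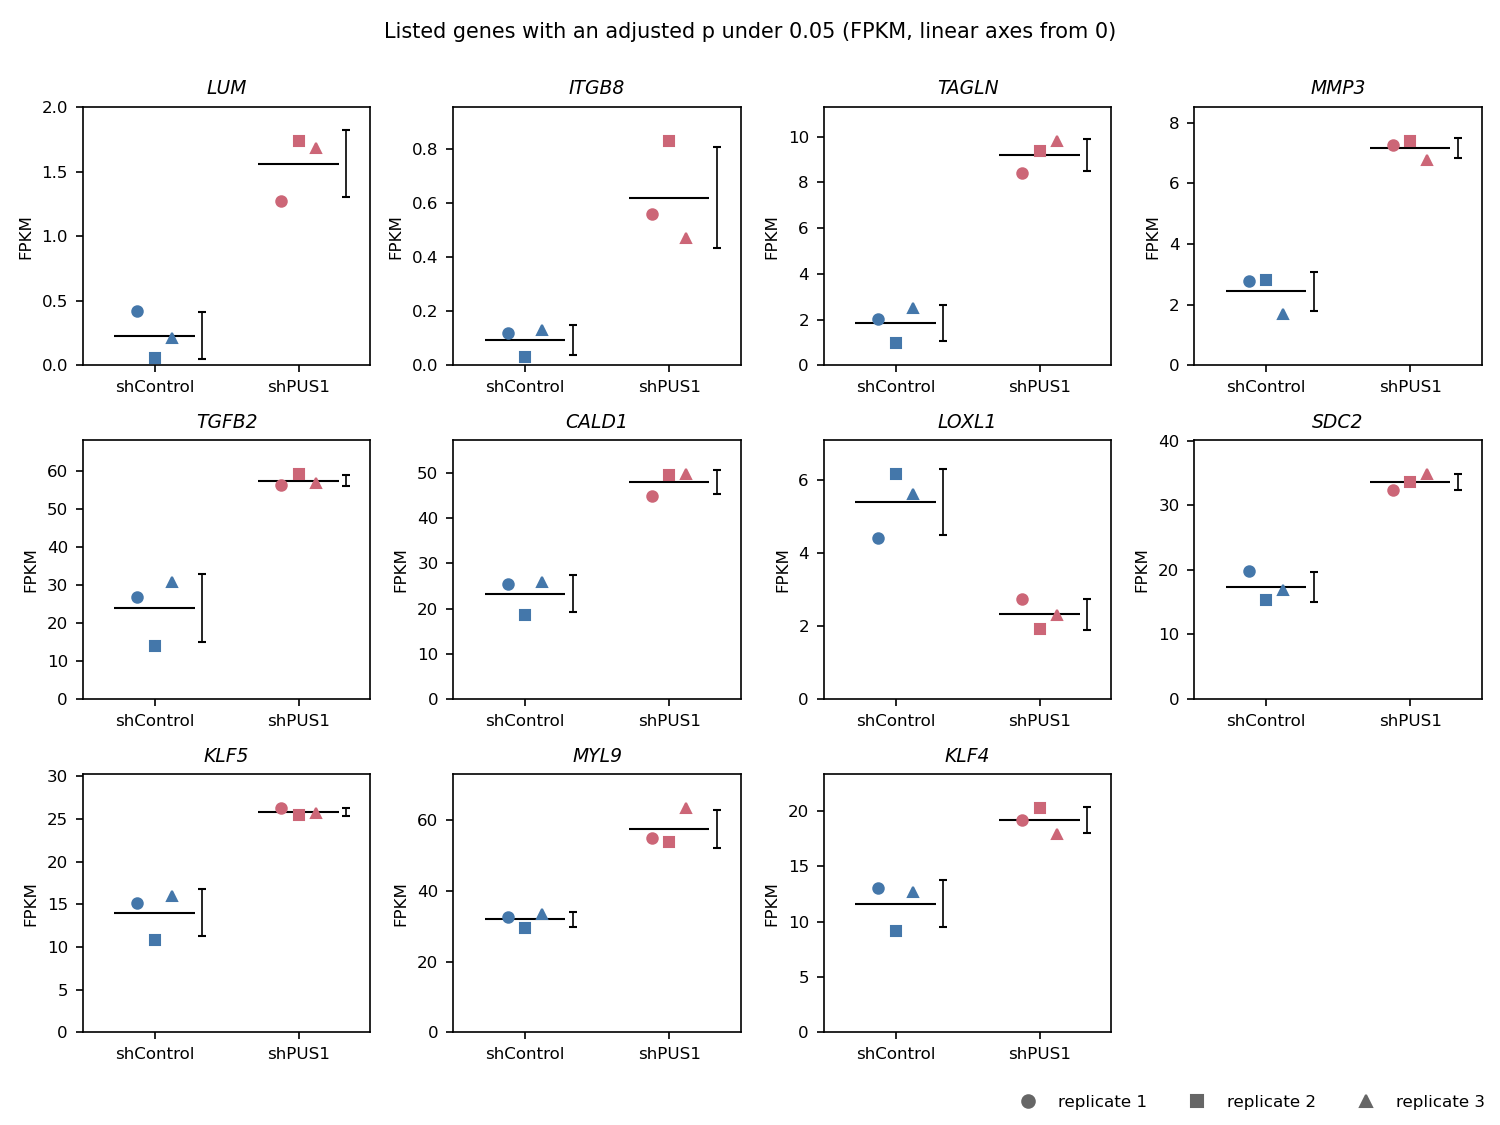
FPKM in each library of the genes of the related lists with an adjusted p under 0.05 by edgeR, 1 panel per gene. Each panel has 1 point per library, a line at the group mean and a bar of 1 SD to either side. The 7 genes past the threshold come first. SDC2, KLF5, KLF4 and MYL9, the latter named after its values had been seen, fell short of the fold asked for. TAGLN, LUM, MMP3, CALD1, ITGB8 and TGFB2 were higher and LOXL1 lower in every shPUS1 library.

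The host gene of miR-200c and miR-141, MIR200CHG, had 0 counts in all 6 libraries, which allows up to 0.437 to 0.602 FPKM, and MIR205HG had 2 counts in all. ZEB2-AS1 was at 0 too. These are host and antisense genes, and a mature microRNA cannot be read from them.

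The labelled cell line was checked against marker lists. All 7 genes that MDA-MB-231 should express, VIM, CD44, KRT8, KRT18, EGFR, AXL and MSN, were at 1 FPKM or more in every library, with VIM the most abundant. Of the 8 genes it should lack or hold low, ESR1, PGR, CDH1, KRT5 and KRT14 were at or near 0, CD24 lay between 0.250 and 1.85 FPKM, and 2, ERBB2 at 4.93 to 6.91 FPKM and EPCAM at 2.21 to 3.12 FPKM, were above 1 FPKM in every library. The luminal epithelial list summed to 105, 69.4 and 91.6 FPKM in shControl and 61.4, 56.9 and 66.5 FPKM in shPUS1, most of it KRT19. Of its 8 genes, 3 were at 1 FPKM or more in every library, KRT19 and EPCAM among them, while CDH1 was near 0. A fibroblast list summed to 7.06, 2.16 and 8.38 FPKM in shControl and 12.2, 13.9 and 12.1 FPKM in shPUS1. PDGFRB was the most abundant of its 8 genes at a mean of 5.69 FPKM, and COL1A2, DCN, FAP and PDGFRA were at or near 0. Of 4 tested, 3 were higher without overlap, against 18.8% of all genes tested. Their median log2 fold change was 1.13, against -0.03 over all genes tested. By edgeR 1 gene (LUM) was past the threshold, and by DESeq2 2 were, LUM and COL1A1, the latter named after its values had been seen. An endothelial list summed to 2.11, 0.670 and 2.59 FPKM in shControl and 2.87, 3.34 and 2.77 FPKM in shPUS1, with KDR the most abundant of its 4 genes. All 4 were tested, 0 were past the threshold by edgeR and 1 was by DESeq2. A list for the embryonic kidney line used to package virus summed to 3.94, 4.23 and 3.66 FPKM in shControl and 4.95, 4.89 and 5.28 FPKM in shPUS1, with SIX2 the most abundant and 3 of 8 genes at 0 in every library. The sums of these last 3 lists were higher in every shPUS1 library, as CDH11 was, and the part of other cells in the CDH11 result was not tested. An immune list summed to 43.8, 38.5 and 44.9 FPKM in shControl and 33.3, 30.7 and 34.1 FPKM in shPUS1, most of it CD68, with 2 of 6 genes at 0.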

How the data were processed

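Poly(A) RNA of 3 shControl and 3 shPUS1 MDA-MB-231 libraries was sequenced as paired ends, per the methods, with alignment by HISAT2 and counting by HTSeq 0.6.1. Build, annotation and strandedness are not given in the sources used here. Estimated counts per gene, deposited without normalization, included 29.8% to 31.8% of values above 0 that were not whole. FPKM were made by the authors from these counts, exonic length and library totals. Coordinates are as deposited, and identifiers matched GENCODE release 29 (GRCh38) for 58337 genes, with the same start and end for 2 of the 10 members.

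Counts were rounded and filtered (filterByExpr), scaled by TMM and tested with edgeR 4.0.16 (quasi-likelihood) in R 4.3.3, with Benjamini-Hochberg adjustment. A prior count of 2 entered only the log2 depth-scaled counts used for correlations, overlap, permutation and likeness, and not the test. Standard errors were the fold change over the square root of F. Tested genes held 99.85% to 99.89% of the counts. On simulated data of 14748 genes for shPUS1 against shControl, 198 of 200 genes with a log2 change of 3 and 180 of 200 with one of 1.5 were recovered at the libraries' common dispersion. False calls numbered 4 and 2 in turn. The simulation gave all genes the same dispersion and had no library that stood apart, so it does not give the recovery in these libraries. Residuals of libraries with the same replicate number correlated at -0.0529, -0.0256 and -0.19, so numbers did not pair the libraries. Alternatives were DESeq2 1.42.0, its size factors, library totals without TMM, no filter, limma 3.58.1 on log2(FPKM + 1) and log2(FPKM + 0.1) over genes of a mean FPKM of at least 1 and with no filter, a replicate block, and each library left out. Figures and descriptions used Python 3.11.15 with pandas 2.3.3, numpy 2.4.6, scipy 1.17.1 and matplotlib 3.10.9.

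The members, the lists and the comparison were chosen with earlier results of these data known. Genes named were PUS1, the members, in each list at most 4 past the threshold, by size of change, and the 3 of highest mean FPKM, and the 3 nearest neighbours of each member. Of the genes this rule named, 2 are not reported here. Intervals from counts cover counting error only.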

Additional observations from a re-analysis of the deposited data

How the results depend on the processing

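CDH11 kept its direction under every alternative run that could give a value, with its lowest log2 fold change of 0.576 (adjusted p of 0.0796) by limma on log2(FPKM + 1) with no filter, and the members past the threshold numbered 1 by edgeR, with DESeq2 size factors and with library totals in place of TMM, where 165 genes were past it and 4 of the related lists were higher. By DESeq2 there were 489 genes past the threshold, 240 of them lower, in place of 202 and 71, 2 members (CDH11 and SNAI1) and 10 higher and 2 lower of the related lists in place of 6 and 1. With no filter on low counts these were 536 and 243, 2, and 11 and 2. With limma on log2(FPKM + 1) they were 87 and 16, 0 members and 0 lower of the lists, and PUS1 had -1.001 with an adjusted p of 0.0544. With limma on log2(FPKM + 0.1) they were 112 and 44, 0 members and 3 higher of the lists, and PUS1 had -1.48 with 0.0514. CDH11, ZEB2 and CDH1 were left out by the FPKM filter of both, by construction. With limma and no filter they were 20 and 2, 0, and 0 and 0, and PUS1 had -1.001 with 0.141. With a replicate block they were 18 and 0, 0 members, 1 higher (TAGLN) and 0 lower of the lists, and PUS1 had -1.55 with an adjusted p of 0.0969 and CDH11 one of 0.069; the numbers do not pair the libraries. With the adjusted p alone 380 genes were called, 124 of them lower, and 10 of the lists were higher. The cause of these differences was not tested. Leaving out each library gave 0 to 497 genes, 0 to 251 of them lower, 0 to 2 members, 0 to 6 higher and 0 to 2 lower of the lists, and a log2 fold change of PUS1 between -1.86 and -1.20. In these runs the sign turned for FN1, at -0.095 without shControl replicate 2 within a range of -0.0946 to 0.215, for CDH18, at 0.11 without shControl replicate 2 within a range of -0.65 to 0.11, and for AJUBA from -0.0202 to 0.0428, KRT18 from -0.107 to 0.0396, CSNK1E from -0.055 to 0.33 and NECTIN2 from -0.000264 to 0.249. AJUBA also turned at -0.017 with library totals and at -0.0173 and -0.0178 with limma. Depth limits TWIST1, CDH1 and CDH2, whose counts are few.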

Other observations

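Genes that act on the SNAI and ZEB proteins were read in lists of corepressors and of SNAI1 protein turnover. Over all genes tested, 18.8% were higher and 17.3% lower without overlap, and 25.5% had an unadjusted p under 0.05. All 17 corepressor genes were tested, 0 were past the threshold by edgeR or DESeq2, 0 had an unadjusted p under 0.05, 15 overlapped between groups and the median log2 fold change was -0.09. HDAC1, a histone deacetylase, stood at -0.36 with an adjusted p of 0.285, and KDM1A, a histone demethylase that SNAI1 recruits, at 0.15 with 0.413. Of 16 genes of SNAI1 protein turnover 15 were tested, 7 were higher and 3 lower without overlap, 0 were past the threshold by edgeR or DESeq2, 7 had an unadjusted p under 0.05 and the median was 0.19. LOXL2, a lysyl oxidase relative, was the most abundant of them at -0.24 with 0.234, and FBXL5, a ubiquitin ligase subunit, stood at 0.37 with 0.261.

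Intermediate filament and linker genes other than VIM had 10 of 15 tested, 3 lower and 1 higher without overlap, 5 at an unadjusted p under 0.05 and a median of -0.18. Over all genes tested, 17.3% were lower and 18.8% higher without overlap, and 25.5% had an unadjusted p under 0.05. In this list 0 genes were past the threshold by edgeR and 2 by DESeq2, DST and LMNB1, named after their values had been seen. These 2 went in opposite directions, and by edgeR both were past it without shControl replicate 3 and with no filter on low counts. The lamin genes LMNA, at 68.1, 83.9 and 63.6 FPKM in shControl and 53.5, 50.6 and 50.6 FPKM in shPUS1, and LMNB2, at 74.1, 115.8 and 80.5 against 63.7, 61.2 and 56.7 FPKM, were lower without overlap in shPUS1, as VIM was, with adjusted p of 0.114 and 0.132. Of the fibronectin receptor genes 16 of 20 were tested and the median was 0.10. ITGB1, the beta subunit of the fibronectin receptor, stood at -0.26 with 0.191 and SDC4, a heparan sulfate co-receptor, at -0.34 with 0.190, while SDC2, named after its values had been seen, stood at 0.98 with an adjusted p of 0.0241 by edgeR (0.0589 without shControl replicate 1 and 0.160, 0.188 and 0.163 without shPUS1 replicates 1, 2 and 3) and ITGB8 rose as given above. Of 26 ligand and receptor genes of the transition 23 were tested, 8 were higher and 1 lower without overlap, and the median was 0.19.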
